A study of Mus musculus with 17 samples.

Results

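The genes described here serve MHC class I antigen presentation and the immunoproteasome: B2m, H2-K1, H2-D1, Nlrc5, Tap1, Tap2, Tapbp, Psmb8, Psmb9 and Psmb10. They were taken by name, and each gene was read from the probe set to which the platform annotation gives that single symbol, the brightest over all arrays where a gene has several. Of the 10 genes, 8 have such a probe set, out of 19752 genes named on the array. H2-K1 and H2-D1 have none: their transcripts were read only by 2 probe sets that both genes share, numbered 10444780 and 10450075, so that the heavy chains cannot be told apart. The annotation gives both of these a further symbol, LOC547349, whose signal they may hold as well. The RNA came from medullary thymic epithelial cells of mice, sorted by flow cytometry, and was measured on 17 whole-transcript gene arrays. The cells came from C57BL/6 mice that carry a reporter, an Igrp-GFP fusion driven by Aire (Adig mice), and were negative for CD45 and Ly51, high in MHC class II and sorted by GFP. Every group carried the reporter, and every sample is labelled as of mixed sex.

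The groups were adult wild-type (WT) GFP- cells (3 arrays, numbered 6, 7 and 8), adult WT GFP+ cells (3 arrays, 6, 7 and 8), adult Aire-knockout (KO) GFP+ cells (3 arrays, 1, 2 and 3), perinate WT GFP- cells (2 arrays, 1 and 2), perinate WT GFP+ cells (3 arrays, 5, 6 and 7) and perinate KO GFP+ cells (3 arrays, 1, 2 and 3). Adults were 5 weeks old. Perinates were 3 days old by the sample labels and 0 to 3 days old by the series text. Values of single arrays are given in the order of these numbers. GFP marks cells in which the reporter was active, also in the knockout, where no Aire protein is expected, so the GFP+ gate names the reporter and not the protein. The labels do not say whether the arrays of a group came from separate mice or pools, so a p-value here reflects the scatter among these arrays, part or all of which may be technical.

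MHC class I molecules carry short peptides from inside the cell to its surface, where T cells read them. The peptides are cut by the proteasome, moved into the endoplasmic reticulum by the transporter of Tap1 and Tap2, and loaded with the help of tapasin (Tapbp) onto a heavy chain such as H2-K1 or H2-D1, paired with the light chain beta-2-microglobulin (B2m). Psmb8, Psmb9 and Psmb10 encode the inducible catalytic subunits that take the place of Psmb5, Psmb6 and Psmb7 in the immunoproteasome and change which peptides are cut. Interferon gamma induces most of these genes, and Nlrc5 is a transactivator of class I genes. In the thymus, class I molecules show self peptides to developing CD8 T cells, and cortical epithelium has a catalytic subunit of its own, Psmb11.

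The members lie on 3 chromosomes of the mouse genome, given here by the RefSeq annotation of GRCm38.p6. B2m is at chr2:122147687-122153082. Nlrc5 (chr8:94434335-94527272) and Psmb10 (chr8:105935728-105938392) share chromosome 8. The others are on chromosome 17: Tapbp (chr17:33919478-33929290), H2-K1 (chr17:33996012-34000619), Psmb9 (chr17:34182030-34187330), Tap1 (chr17:34187556-34197225), Psmb8 (chr17:34198195-34201454), Tap2 (chr17:34204479-34216321) and H2-D1 (chr17:35263094-35267497). Psmb9, Tap1, Psmb8 and Tap2 follow each other without another member between them. Tap1 and Psmb9 are read in opposite directions from starts 226 bases apart, so that their promoter windows share 275 bases.

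Promoter windows of 300 bases, most of them upstream of the start used for a gene and the last ones from it onward, were taken from RefSeq (GRCm38.p6) for 8 of the 10 members, Nlrc5 and Tap2 being the ones without. They are shown for Tap1, whose window holds most of that of Psmb9, and for Psmb8, because Psmb9 and Psmb8 were called lower in perinates while Tap1 was not; for both heavy chains, which share probe sets, H2-K1 by 1 of its 2 windows; and for B2m, whose level was the steadiest. Each is printed 5′ to 3′ along the gene's own strand, and capitals mark the matches to 6 motifs on either strand. The 2 windows of H2-K1 are counted from starts at 34000347 and 34000333, inside the gene span given above. The printed H2-K1 window therefore lies within that span and not upstream of it. The motifs were GAAANNGAA (core of the interferon-stimulated response element), TTCNNNGAA (gamma-activated site), GGGNNTTCC (kappa B site), CCAAT (the box bound by NF-Y), TGACG (cyclic AMP response half-site) and GGGCGG (GC box), and in these windows no match overlapped another.
B2m, chr2:122147437-122147736, + strand: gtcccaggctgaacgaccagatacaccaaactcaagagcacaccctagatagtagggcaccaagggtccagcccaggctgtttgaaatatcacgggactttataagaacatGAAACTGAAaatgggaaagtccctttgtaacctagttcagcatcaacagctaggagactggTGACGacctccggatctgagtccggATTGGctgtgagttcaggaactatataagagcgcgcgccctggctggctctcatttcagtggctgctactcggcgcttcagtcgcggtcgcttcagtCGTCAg
H2-K1, chr17:34000298-34000597, - strand: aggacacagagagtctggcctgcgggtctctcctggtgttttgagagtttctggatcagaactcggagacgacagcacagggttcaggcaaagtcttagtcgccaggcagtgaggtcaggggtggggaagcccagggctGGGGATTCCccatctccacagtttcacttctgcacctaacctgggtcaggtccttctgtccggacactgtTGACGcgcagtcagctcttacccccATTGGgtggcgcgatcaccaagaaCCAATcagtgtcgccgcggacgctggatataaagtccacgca
H2-D1, chr17:35262844-35263143, + strand: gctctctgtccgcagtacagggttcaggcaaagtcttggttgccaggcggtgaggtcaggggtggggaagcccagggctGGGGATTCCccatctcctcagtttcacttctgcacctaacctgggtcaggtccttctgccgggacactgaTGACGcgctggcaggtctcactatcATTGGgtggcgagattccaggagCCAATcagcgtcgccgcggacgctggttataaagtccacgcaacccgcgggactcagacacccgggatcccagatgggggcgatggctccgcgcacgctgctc
Tap1, chr17:34187306-34187605, + strand: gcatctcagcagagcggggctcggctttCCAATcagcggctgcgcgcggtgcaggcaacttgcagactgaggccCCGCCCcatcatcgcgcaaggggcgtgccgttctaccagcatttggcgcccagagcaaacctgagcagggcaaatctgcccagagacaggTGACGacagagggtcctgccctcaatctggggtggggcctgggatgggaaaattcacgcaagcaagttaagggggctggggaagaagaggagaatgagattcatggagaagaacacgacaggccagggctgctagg
Psmb8, chr17:34197945-34198244, + strand: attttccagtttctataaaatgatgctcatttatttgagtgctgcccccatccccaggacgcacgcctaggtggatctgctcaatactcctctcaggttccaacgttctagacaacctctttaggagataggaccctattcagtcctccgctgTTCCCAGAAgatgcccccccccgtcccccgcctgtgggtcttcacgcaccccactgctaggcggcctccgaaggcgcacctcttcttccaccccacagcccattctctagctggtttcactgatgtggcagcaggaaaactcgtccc

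The B2m window held 1 interferon element core, GAAACTGAA, which starts 139 bases before the gene's start, and this motif is in 8.56% of 32851 windows of the same length. Both heavy chains held the same kappa B match, GGGGATTCC, a motif found in 5.82% of windows. It starts 111 bases upstream of the start at 34000347 in the printed H2-K1 window and 171 bases upstream in H2-D1. Both also held TGACG, which 20.8% of windows hold, and CCAAT, which 37.4% hold. Psmb8 held 1 match to the gamma-activated site, TTCCCAGAA, 97 bases upstream, against 8.3% of windows. The stretch shared by Tap1 and Psmb9 held 1 CCAAT match, 1 TGACG match and 1 GC box, the last of which is in 35.7% of windows. The Tapbp window held 2 CCAAT matches and 1 GC box, and that of Psmb10 held none of the 6 motifs. Only exact matches to the letters given were counted, so a site that differs from them in any letter was not marked.

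All levels below are intensities of probe sets, on a linear scale. The median of an array lay between 144.5 and 157.1, and arrays of a group correlated at 0.97 to 0.995 over the log2 values of all tested genes. The targeted gene does not tell the genotypes apart here: Aire read 5097 ± 971 (SD, n = 3) in adult WT GFP+ cells and 4927 ± 284 (SD, n = 3) in adult KO GFP+ cells, and the files do not say whether its probe set lies in the deleted part. The Y-linked Uty read 19.2 and 16.1 on perinate KO arrays 2 and 3 and 229 on array 1, which goes against their mixed-sex label, so calls in perinate KO cells are also given with array 1 alone. The spread of that single array is then taken to be that of the other groups. Summed over 13 measured medullary markers, intensities were 44758 to 45699.7 in perinate GFP- cells, 54948 to 57680.4 in adult GFP- cells and 61833 to 69349 on GFP+ arrays. The sum of 7 cortical markers was 13745 to 14121 in perinate GFP- cells. It was 3580.1 to 5578 in their adult counterpart and 3708 to 7192 on GFP+ arrays. The markers Itgax of dendritic cells, Ms4a1 and Cd79a of B cells, Dntt and Ptcra of thymocytes and Kdr of endothelium were below the detection threshold on all arrays. They are 1 of 11 measured markers of dendritic cells and macrophages, 2 of 3 of B cells, 2 of 8 of thymocytes and 1 of 4 of endothelium. The other measured markers of these types were above the threshold on at least 1 array.

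All 8 members with their own probe set were above the detection threshold on every array. Their lowest value was 222, for Psmb8, while the threshold for a detected gene, the 40th percentile of an array, lay between 96.2 and 112. Differences are log2 differences of group means from 1 limma model over all arrays, and p-values carry the Benjamini-Hochberg adjustment for all 13842 tested genes. A gene was called at an adjusted p under 0.05.

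With age, Tap2, Psmb8, Psmb9 and Psmb10 were lower in perinate than in adult WT GFP+ cells, 4 of 8 members, and none was higher. Tap2, Psmb8 and Psmb9 were also lower in perinate WT GFP- cells, 3 of 8, and Tap2 in perinate KO GFP+ cells, 1 of 8. Of all 13842 genes, 13.6% were called lower and 8.52% higher in perinate WT GFP+ cells. These shares were 24.2% and 22.2% in GFP- cells and 12.7% and 13.4% in KO cells, so that a count of 3 of 8 in GFP- cells and of 1 of 8 in KO cells lies close to the background.

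Between the GFP gates, Psmb10 was higher and Nlrc5 lower in adult GFP+ cells, 1 of 8 in each direction, beside 24.7% of all genes higher and 20.1% lower. In perinates, Tapbp, Psmb8 and Psmb10 were higher and Tap1 lower in GFP+ cells (3 and 1 of 8), against 23% and 20.5% of all genes. In the absence of Aire, Tap1 and Psmb8 were lower in adult GFP+ cells, 2 of 8, beside 10.8% of all genes lower and 9.06% higher. In perinate KO cells Psmb10 alone was called, and it was higher, against 13.5% of all genes higher and 13% lower. No member was called for a difference of the KO effect between ages, where 1.21% of all genes were called in either direction, nor for a difference of the GFP effect between ages, where 20% were. At an unadjusted p under 0.05, 2 members passed the first of these tests, Psmb8 and Psmb10, and 0 the second.

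By their median, the 8 members differed with age by -0.37 in WT GFP+ cells, -0.26 in WT GFP- cells and -0.17 in KO cells, while the medians of all tested genes were -0.00, 0.02 and -0.01. Between the gates the members' median was 0.02 in adults and 0.07 in perinates, against 0.02 and 0.00 for all genes. Several comparisons share arrays: age in WT GFP+ cells shares the perinate WT GFP+ arrays with the perinate KO comparison and the adult ones with the adult KO comparison, for example.

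**Figure D1:**
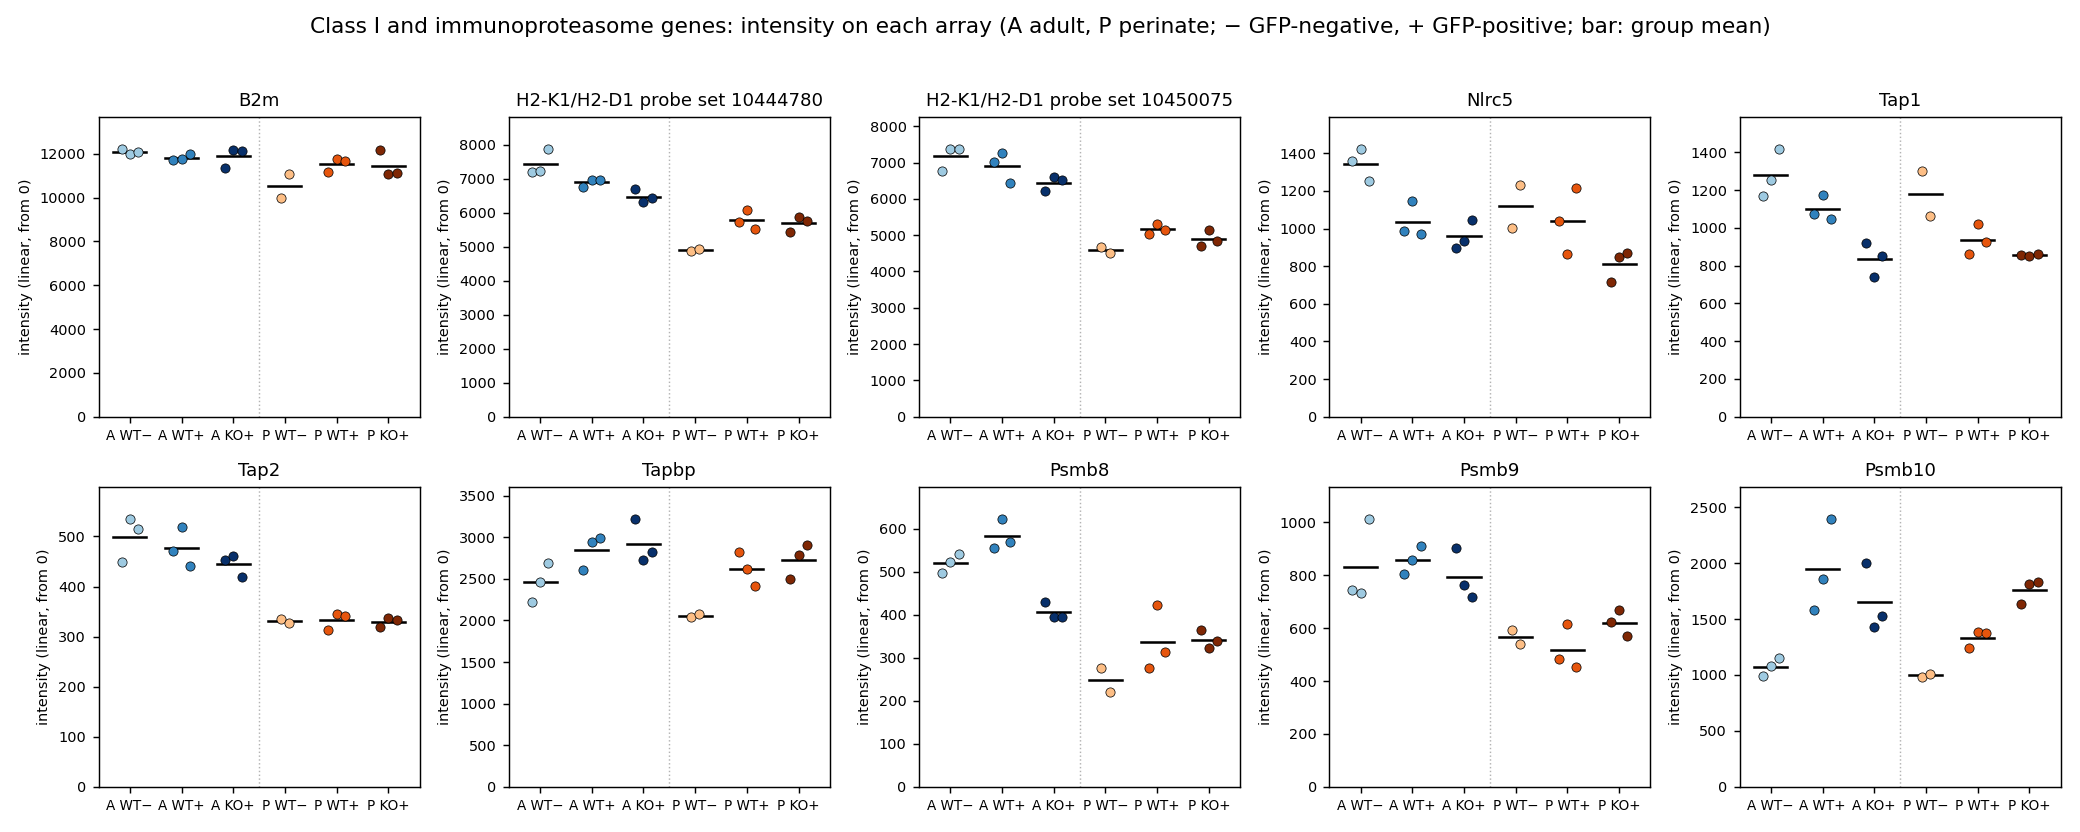
Linear intensity (vertical axis, from 0) of each class I and immunoproteasome gene on each array, by group (A adult, P perinate, - GFP-negative, + GFP-positive); points are arrays and bars are group means. B2m stays between 9968 and 12217 on all arrays, while in Tap2 every perinate point lies below every adult point.

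B2m, the light chain of every class I molecule, varied least among the members. It read 12217, 11991 and 12081 in adult GFP- cells, 11715, 11747 and 12011 in adult WT GFP+ cells and 11334, 12196 and 12142 in adult KO cells. In perinates it read 9968 and 11094 in GFP- cells, 11164, 11752 and 11649.8 in WT GFP+ cells and 12179, 11059 and 11128 in KO cells. Both perinate GFP- values lie below every adult value and every perinate WT GFP+ value, and in the comparisons by age or genotype of GFP+ cells the groups overlap. No comparison called B2m. Its difference with age was -0.04 ± 0.08 (SE; adjusted p = 0.781) in WT GFP+ cells, with a 95% interval of -0.21 to 0.14, and -0.20 ± 0.09 (SE; adjusted p = 0.0846) in GFP- cells. In order of mean level, adult GFP- cells came first and perinate GFP- cells last, and each group overlapped the next in that order.

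The heavy chains, read by the 2 probe sets that H2-K1 and H2-D1 share, were lower in perinates. Probe set 10450075 read 6761, 7372 and 7369.6 in adult GFP- cells and 4664 and 4519.7 in perinate GFP- cells. In WT GFP+ cells it read 7022, 7275 and 6427 in adults and 5044, 5297 and 5156 in perinates. In KO cells it read 6213, 6592 and 6519 in adults and 4692, 5136 and 4830.0 in perinates. All 8 perinate arrays lie below all 9 adult arrays. The differences, adjusted over the 2104 other probe sets with several gene symbols or none, were -0.64 ± 0.08 (SE; adjusted p = 2.94e-05) in GFP- cells, -0.42 ± 0.07 (SE; adjusted p = 0.00127) in WT GFP+ cells and -0.40 ± 0.07 (SE; adjusted p = 0.00171) in KO cells. With perinate KO array 1 alone the last was -0.46 (adjusted p = 0.0239).

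Probe set 10444780 read 7191, 7221 and 7868 in adult GFP- cells and 4875 and 4933 in perinate GFP- cells. In WT GFP+ cells it read 6747, 6964 and 6966 in adults and 5734, 6068 and 5528 in perinates. In KO cells it read 6687, 6314 and 6417 in adults and 5444, 5881 and 5760.4 in perinates. Here too the groups of 1 gate and genotype do not overlap between the ages. The difference was -0.60 ± 0.08 (SE; adjusted p = 3.36e-05) in GFP- cells, -0.26 ± 0.07 (SE; adjusted p = 0.0177) in WT GFP+ cells and -0.19 ± 0.07 (SE; adjusted p = 0.065) in KO cells. The call in WT GFP+ cells was lost without adult array 7 (adjusted p = 0.0615), adult array 8 (0.0565), perinate array 5 (0.0552) or perinate array 7 (0.0557). Between the gates, this probe set was higher in perinate GFP+ than GFP- cells (log2 difference 0.24 ± 0.08 (SE), adjusted p = 0.0293). That call was lost without perinate GFP- array 1 (adjusted p = 0.0942), GFP- array 2 (0.0834), GFP+ array 5 (0.0564) or GFP+ array 6 (0.0939). In adults the difference was -0.11 (adjusted p = 0.218), and the difference of these effects was 0.34 (adjusted p = 0.0304), lost without any of 6 arrays: adult GFP- array 8, adult GFP+ arrays 6 and 8, either perinate GFP- array or perinate GFP+ array 6 (adjusted p up to 0.0675). The other probe set, 10450075, differed by 0.17 (adjusted p = 0.126) between the gates in perinates and by 0.22 (adjusted p = 0.179) in the difference of the effects. Neither probe set was called for KO against WT at either age.

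Nlrc5, the class I transactivator, has 19 probe sets, and the brightest, used in the tests, did not follow the others with age. It read 1359.5, 1422 and 1254 in adult GFP- cells, 985, 1148 and 969 in adult WT GFP+ cells and 899, 932 and 1044 in adult KO cells. In perinates it read 1005 and 1231 in GFP- cells, 1042, 865 and 1217 in WT GFP+ cells and 717, 849 and 871 in KO cells. The perinate WT GFP+ values reach from below to above those of adult WT GFP+ cells, and the difference with age was 0.00 ± 0.13 (SE; adjusted p = 0.997). In the other 18 probe sets the difference lay below 0, and in 11 of the 19 no perinate array reached the adult values. The median over the 19 was -0.50. With the mean of all probe sets of a gene in place of the brightest, Nlrc5 differed with age by -0.48 in WT GFP+ cells (adjusted p = 0.00925) and by -0.64 in GFP- cells (adjusted p = 0.000909). The cause of this disagreement among probe sets was not tested.

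In GFP- cells all 19 Nlrc5 probe sets were lower in perinates, with a median of -0.67 and no overlap of arrays in any of them, while the brightest gave -0.27 (adjusted p = 0.139). In KO cells all 19 were lower as well, 7 of them without overlap. Between the gates Nlrc5 was lower in adult GFP+ than GFP- cells (log2 difference -0.38 ± 0.13 (SE), adjusted p = 0.0252), where its level decreased by 23.3% from GFP- to GFP+ cells. In that comparison all 19 probe sets were lower and 18 had no overlap. The call from the brightest was lost without adult GFP- array 6 (adjusted p = 0.0596), GFP- array 7 (0.0833), GFP+ array 6 (0.0773) or GFP+ array 8 (0.0865). With the mean of all probe sets it was -0.43 (adjusted p = 0.00787). The probe sets of 1 gene share RNA and arrays and are not replicates.

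Against WT, Nlrc5 differed by -0.11 (adjusted p = 0.611) in adult and -0.35 (adjusted p = 0.0579) in perinate KO cells; the latter was -0.48 (adjusted p = 0.0159) without perinate WT GFP+ array 6. All 19 probe sets were lower in adult KO cells, with a median of -0.23 and 10 without overlap, and 10 were lower and 9 higher in perinate KO cells. The order of mean levels ran from adult GFP- cells, which stood above the next group without overlap, through perinate GFP-, perinate WT GFP+, adult WT GFP+ and adult KO cells, each overlapping the next, to perinate KO cells. Perinate KO cells overlapped perinate WT GFP+ cells and no other group.

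**Figure D2:**
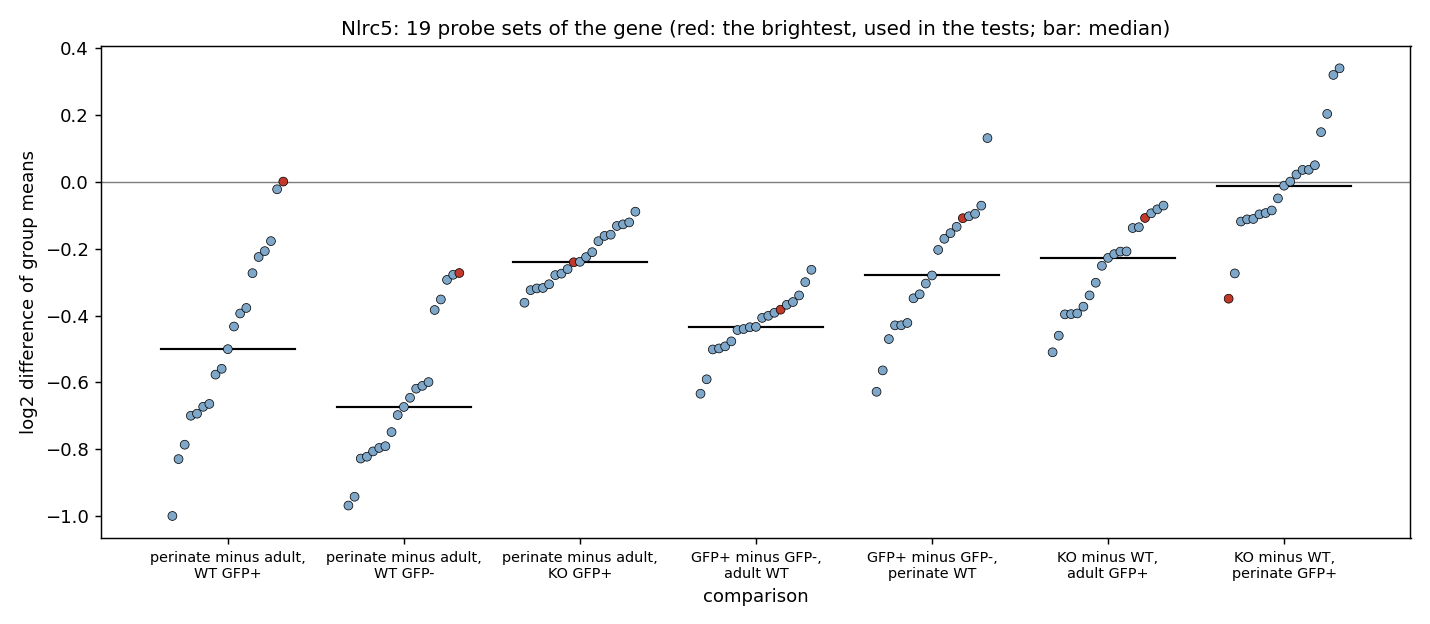
Log2 difference of group means (vertical axis) of the 19 Nlrc5 probe sets in 7 comparisons (horizontal axis); red marks the brightest probe set and bars mark medians. With age in WT GFP+ cells the red point lies at 0.00 while the other 18 lie below 0, and in adult GFP+ against GFP- cells all 19 lie below 0.

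Of the peptide transporter, Tap2 was lower in perinates in every gate and genotype, and no age comparison called Tap1. Tap2 read 449.9, 535 and 515 in adult GFP- cells, 470.4, 519 and 440.2 in adult WT GFP+ cells and 452, 462 and 419.5 in adult KO cells. In perinates it read 335 and 328 in GFP- cells, 313, 346 and 342 in WT GFP+ cells and 319.6, 337 and 334 in KO cells. The 8 perinate values lie between 313 and 346 and the 9 adult values between 419.5 and 535, with no overlap. The difference was -0.59 ± 0.11 (SE; adjusted p = 0.000249) in GFP- cells, -0.51 ± 0.10 (SE; adjusted p = 0.00123) in WT GFP+ cells and -0.43 ± 0.10 (SE; adjusted p = 0.00353) in KO cells. Its level decreased by 33.4%, 29.9% and 25.7%. These calls held whichever array was left out, and with perinate KO array 1 alone the last was -0.47 (adjusted p = 0.0431). No GFP or KO comparison called Tap2 at either age, with differences between -0.10 and 0.01.

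Tap1, which pairs with Tap2, read 1169, 1256 and 1417 in adult GFP- cells, 1076, 1173 and 1047 in adult WT GFP+ cells and 918, 740.4 and 851 in adult KO cells. In perinates it read 1301 and 1062 in GFP- cells, 862, 1019 and 924 in WT GFP+ cells and 854, 850.0 and 859.5 in KO cells. All 3 adult KO arrays lie below the adult WT GFP+ arrays, and the difference was -0.40 ± 0.11 (SE; adjusted p = 0.0182), so that the level decreased by 24.1% against WT. That call was lost without adult WT GFP+ array 7 (-0.35, adjusted p = 0.0814) or adult KO array 2 (-0.31, adjusted p = 0.11). In perinates the KO difference was -0.13 (adjusted p = 0.419), and the difference between the ages was 0.27 (adjusted p = 0.394). Tap1 was also lower in perinate GFP+ than GFP- cells (log2 difference -0.33 ± 0.13 (SE), adjusted p = 0.0398), a call lost without perinate GFP- array 1 (adjusted p = 0.352), GFP+ array 5 (0.123) or GFP+ array 7 (0.0713). With age, Tap1 differed by -0.23 (adjusted p = 0.142) in WT GFP+ cells, -0.12 (adjusted p = 0.461) in GFP- cells and 0.04 (adjusted p = 0.848) in KO cells. Psmb9, which starts from the other end of the window printed above for Tap1, was lower in perinates in both WT gates, as given below.

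Tapbp, which holds the heavy chain at the transporter, was higher in GFP+ than GFP- perinate cells. It read 2041 and 2074 in perinate GFP- cells against 2826, 2619 and 2413 in perinate WT GFP+ and 2502, 2784 and 2906 in perinate KO cells, so that both GFP- arrays were lower than all GFP+ arrays. The difference was 0.35 ± 0.12 (SE; adjusted p = 0.0257). The call was lost without either GFP- array (adjusted p = 0.0988 without array 1 and 0.0786 without array 2), without GFP+ array 5 (0.0877) or without GFP+ array 6 (0.0514). In adults Tapbp read 2226, 2457 and 2692 in GFP- cells, 2610.0, 2941 and 2984 in WT GFP+ cells and 3217, 2729 and 2825 in KO cells, and the GFP difference of 0.21 (adjusted p = 0.113) was not called. Its differences with age lay between -0.25 and -0.10 and its KO differences at 0.04 and 0.06, none of them called.

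Psmb8, an immunoproteasome subunit, had the largest difference with age of the 8 members in both WT gates. It read 497, 522 and 541 in adult GFP- cells and 276 and 222 in perinate GFP- cells. In WT GFP+ cells it read 555, 623 and 569 in adults and 276, 423 and 314 in perinates. In neither gate did the ages overlap. The difference was -1.07 ± 0.15 (SE; adjusted p = 1.73e-05) in GFP- cells and -0.81 ± 0.13 (SE; adjusted p = 0.000459) in WT GFP+ cells, which is a 2.10- and a 1.75-fold lower level, and both calls held whichever array was left out. In KO cells Psmb8 read 431, 394 and 395 in adults and 365, 323 and 340.1 in perinates, again without overlap but with a difference of -0.25 ± 0.13 (SE; adjusted p = 0.184). The age differences of KO and WT GFP+ cells differed by 0.56, with a 95% interval of 0.17 to 0.95 that is not adjusted over genes, and were not called different (adjusted p = 0.134). Without perinate WT GFP+ array 6, the highest of its group, the value was 0.73 (adjusted p = 0.0321).

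Adult KO cells had less Psmb8 than adult WT GFP+ cells: the 3 KO values lie below the 3 WT values, and the difference of -0.52 ± 0.13 (SE; adjusted p = 0.00963), by which the level decreased by 30.2%, stayed called whichever array was left out. In perinates the KO difference was 0.04 (adjusted p = 0.834). Between the gates, Psmb8 was higher in perinate GFP+ cells (log2 difference 0.43 ± 0.15 (SE), adjusted p = 0.0272), a call lost without perinate GFP- array 2 (adjusted p = 0.267) or GFP+ array 6 (0.13). In adults the difference was 0.16 (adjusted p = 0.331). The order of levels was adult WT GFP+, adult GFP-, adult KO, perinate KO, perinate WT GFP+ and perinate GFP- cells, and among neighbours only both perinate GFP+ groups overlapped.

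Psmb9 was lower in perinate WT cells of both gates. It read 804, 859 and 912 in adult and 484, 615 and 454 in perinate WT GFP+ cells, a difference of -0.74 ± 0.14 (SE; adjusted p = 0.00147) that held whichever array was left out. In GFP- cells it read 744, 734 and 1012 in adults and 592 and 539.8 in perinates, a difference of -0.54 ± 0.16 (SE; adjusted p = 0.0101) that was not called without perinate array 2 (-0.47, adjusted p = 0.0776). Adults and perinates did not overlap in either gate. In KO cells it read 904, 762 and 717 in adults and 624, 668 and 569 in perinates, without overlap, and the difference was -0.35 ± 0.14 (SE; adjusted p = 0.0763). Neither GFP nor genotype gave a call: the largest of these differences was 0.27 (adjusted p = 0.163), for perinate KO against WT.

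In adults, Psmb10 had the largest difference of the 8 members between the GFP gates. It read 995, 1085 and 1148 in GFP- cells and 1582, 1862 and 2393 in WT GFP+ cells, with no overlap. The difference was 0.84 ± 0.14 (SE; adjusted p = 0.000155), a 1.79-fold higher level, and it held whichever array was left out. In perinates it read 979.6 and 1013 in GFP- cells and 1243, 1382 and 1373 in WT GFP+ cells, again without overlap, a difference of 0.42 ± 0.16 (SE; adjusted p = 0.043). That call was lost without either GFP- array (adjusted p = 0.15 and 0.108), GFP+ array 6 (0.0975) or GFP+ array 7 (0.0877). The difference of the GFP effects between the ages was -0.42 (adjusted p = 0.188), with an unadjusted 95% interval of -0.87 to 0.03. In order of level, adult WT GFP+, perinate KO and adult KO cells came first, each overlapping the next, then perinate WT GFP+ cells without overlap on either side, then adult GFP- and perinate GFP- cells, which overlapped.

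With age, Psmb10 was lower in perinate WT GFP+ cells (log2 difference -0.53 ± 0.14 (SE), adjusted p = 0.0144). Adult array 8, at 2393, was the highest of all, and without it the difference was -0.37 (adjusted p = 0.0837); without perinate array 5 it was -0.48 (adjusted p = 0.0543). In GFP- cells the age difference was -0.11 (adjusted p = 0.609) and in KO cells 0.11 (adjusted p = 0.626). KO cells read 2001, 1425 and 1526 in adults and 1636, 1815 and 1831 in perinates. Perinate KO arrays were all above the perinate WT GFP+ arrays, with a difference of 0.40 ± 0.14 (SE; adjusted p = 0.0469). That call was lost without any 1 of the 6 arrays (adjusted p from 0.0514 to 0.147), and the difference was 0.30 (adjusted p = 0.442) with perinate KO array 1 alone. In adults the KO difference was -0.23 (adjusted p = 0.279), and the difference of the KO effects was 0.63 (adjusted p = 0.119).

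**Figure D3:**
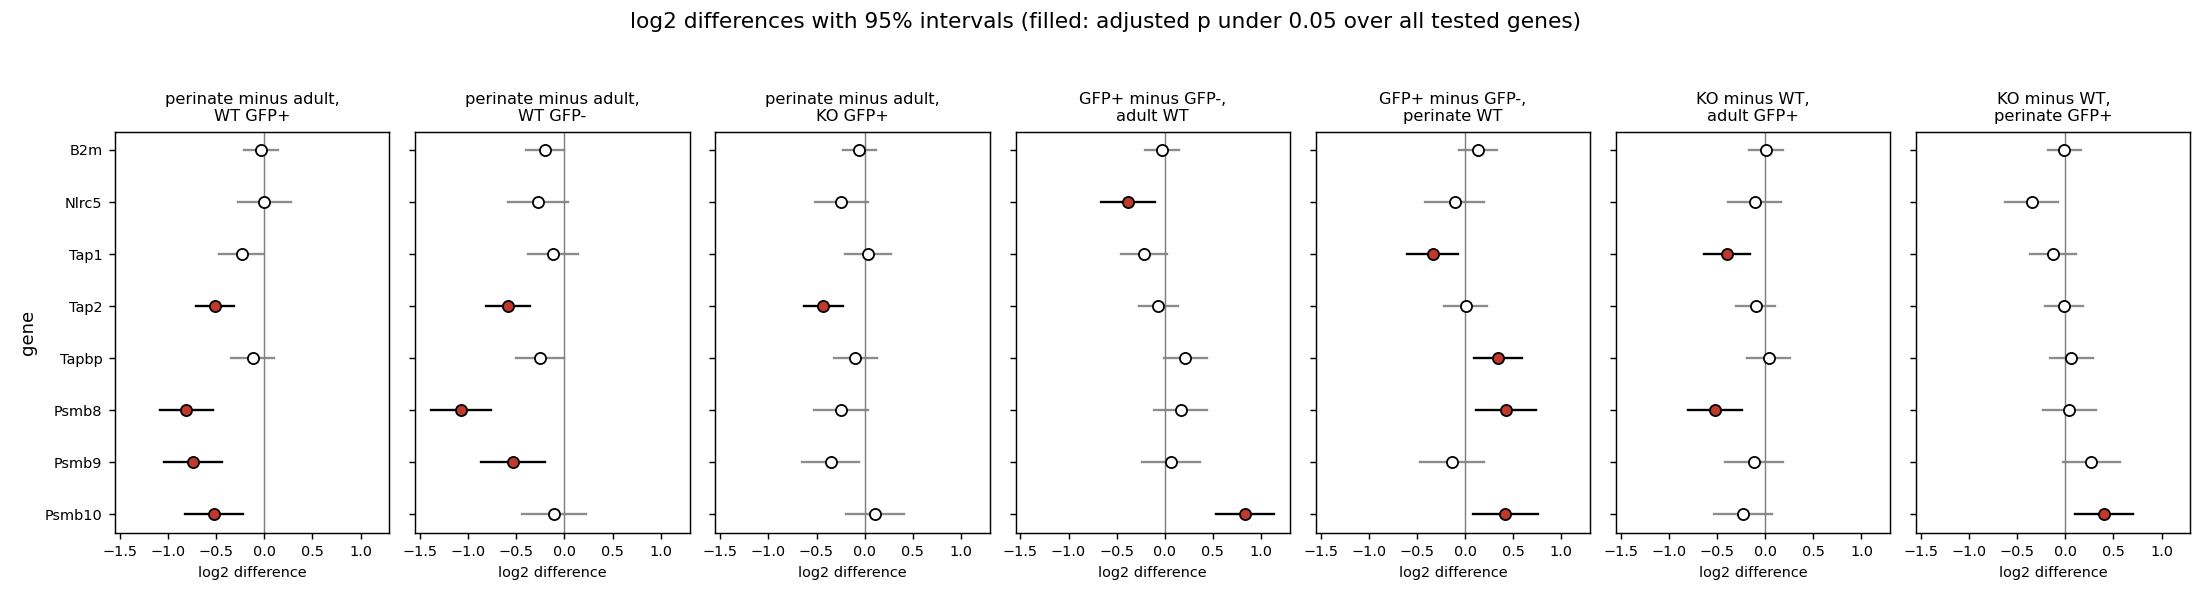
Log2 difference (horizontal axis) with its 95% interval for 8 genes in 7 comparisons of 2 groups; filled points have an adjusted p under 0.05 over all tested genes. The perinate minus adult panels hold filled points only below 0, at Tap2 in all 3 of them, and Psmb10 is the highest point of the adult GFP+ minus GFP- panel at 0.84.

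Markers of other cells were also called in these comparisons, and the shares of all genes called are given beside the counts. With age in WT GFP+ cells, the sum of 11 dendritic cell and macrophage markers was 2375 to 2477 in adults and 1865 to 2113 in perinates, with 3 of 10 tested markers lower and 0 higher. The sum of 6 fibroblast markers was 2579 to 2951 and 4079 to 5046, with 3 of 6 higher. In this comparison 13.6% of all genes were lower and 8.52% higher. In GFP- cells, besides the cortical markers given above (5 of 7 higher in perinates), 9 of 13 medullary markers and 5 of 10 dendritic and macrophage markers were lower in perinates, and 1 of the latter was higher. The 1 tested B cell marker, 2 of 3 endothelial and 1 of 6 thymocyte markers were lower there too. These counts stand beside 24.2% of all genes lower and 22.2% higher, and that of thymocyte markers lies under this share. The sum of 3 measured B cell markers was 760.1 to 934 in adult and 271 to 384 in perinate GFP- cells, and that of 4 endothelial markers 581 to 914 and 372 to 496. In KO cells 1 of 10 dendritic and macrophage markers was lower in perinates, close to the 12.7% of all genes. For KO against WT in adults, 6 of 10 dendritic and macrophage markers were lower and 2 higher, and 2 of 6 fibroblast markers were lower and 2 higher. In perinates 6 of 10 and 2 of 6 were lower and 1 and 2 higher. The shares of all genes were 10.8% lower and 9.06% higher in adults, and 13% and 13.5% in perinates. Between the gates, 6 of 10 dendritic and macrophage markers were higher in adult GFP+ cells and 7 in perinate GFP+ cells, where 1 was lower. Here 24.7% of all genes were higher in adult GFP+ cells and 23% in perinate GFP+ cells, where 20.5% were lower. The part of these cells in the members' differences was not tested, and in sorted bulk RNA fewer cells of a type and less RNA per cell cannot be told apart.

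Each inducible subunit was also set against the constitutive subunit of the same place in the proteasome core, as the log2 difference of the pair within an array. Only changes of this difference between groups can be read, since levels of different probe sets are not comparable. Psmb8 over Psmb5 differed from adult to perinate WT GFP+ cells by -0.82, Psmb9 over Psmb6 by -0.77 and Psmb10 over Psmb7 by -0.55 on the log2 scale. In none of the 3 pairs did a perinate array reach an adult array. In GFP- cells the differences were -0.85, -0.59 and -0.07, and in KO cells -0.48, -0.61 and -0.18, without overlap for the first and second pair. Each of these non-overlapping differences had p = 0.1 in a two-sided exact permutation test, the smallest p that the groups allow, and an adjusted p of 0.191 over the 21 tests of this family, so none could pass the threshold. In GFP- cells the third pair had an exact permutation p of 0.7 and in KO cells of 0.5.

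The constitutive subunits Psmb5, Psmb6 and Psmb7 differed between the ages by 0.01, 0.03 and 0.02 in WT GFP+ cells, none of them called (adjusted p = 0.934, 0.92 and 0.9). In adult GFP+ against GFP- cells Psmb10 over Psmb7 differed by 0.44 and Psmb9 over Psmb6 by -0.34 (exact permutation p = 0.1 for each), while Psmb6 and Psmb7 themselves were higher in GFP+ cells by 0.40 (adjusted p = 0.0399) and 0.40 (adjusted p = 0.00698). The Psmb6 call was lost without GFP- array 6 (adjusted p = 0.127), GFP- array 7 (0.114), GFP+ array 6 (0.0992) or GFP+ array 7 (0.116). Psmb8 over Psmb5 differed by -0.30 between adult KO and WT cells, without overlap (exact permutation p = 0.1). Psmb11, the catalytic subunit of cortical epithelium, read 383 and 313 in perinate GFP- cells and between 88.9 and 129.7 elsewhere. It was called higher in perinate than adult GFP- cells (adjusted p = 6.43e-09), and since the adult values lie around the detection threshold no size is given.

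**Figure D4:**
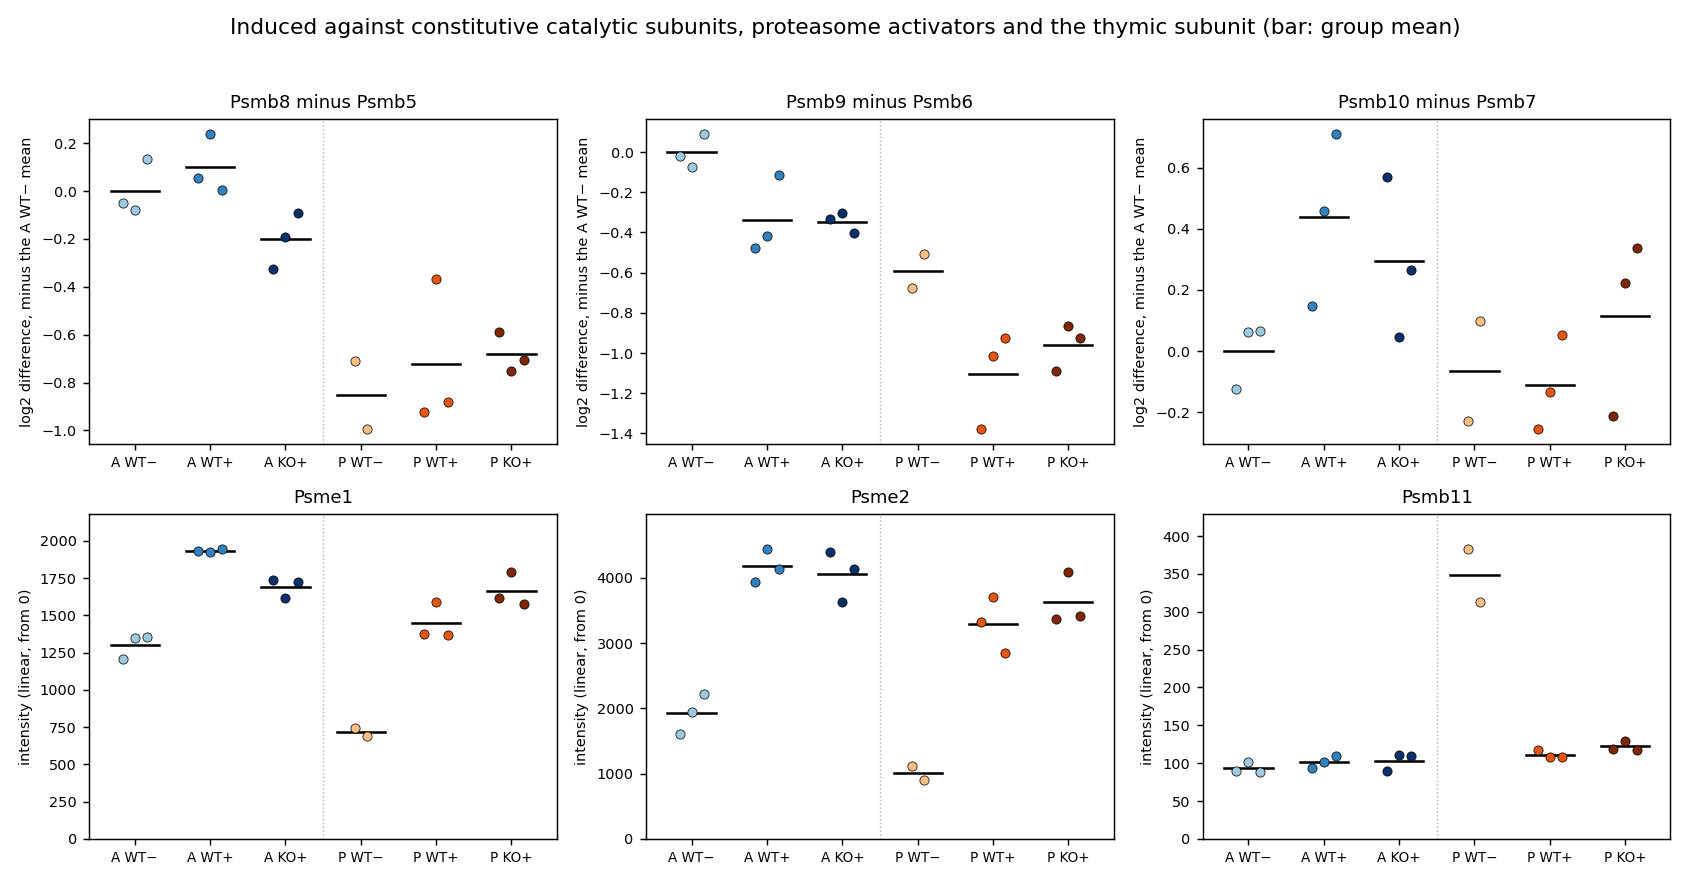
Top: log2 difference within an array between an inducible and a constitutive catalytic subunit, minus the mean of adult WT GFP- cells (vertical axis), by group; bottom: linear intensity from 0 of the activators Psme1 and Psme2 and of Psmb11. Points are arrays and bars are group means; in perinate WT GFP+ cells all 3 pairs lie below adult WT GFP+ cells, and Psmb11 stands out only in perinate GFP- cells.

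The other genes of the pathway came from lists chosen with earlier results of these data known, and are described by counts. Of 29 class I heavy chains and class I-like molecules 12 were tested, and 10 of them were lower in perinate WT GFP+ cells, 8 in perinate GFP- cells and 6 in perinate KO cells, with 0 higher in any. Of all genes 13.6%, 24.2% and 12.7% were lower in these comparisons. The medians of the 12 were -0.43, -0.54 and -0.40, beside the medians of all genes given above. The WT GFP+ count and median include H2-M1 and H2-M9, which passed the filter only through adult WT GFP+ cells. These genes could be called only lower in that comparison, so they add no support to its count. The GFP- count includes H2-M1, which was below the detection threshold on every GFP- array of both ages. It also includes Hfe, which read 89.4 to 97.9 in adult GFP- cells, around that threshold, and 63.2 to 69.1 in perinate ones, below it. H2-M1 and H2-M9 enter the medians of GFP- and KO cells too, where both were below the threshold. In WT GFP+ cells the differences were -0.98 (adjusted p = 0.00827) for H2-T10 and -0.86 (adjusted p = 0.00746) for H2-M2. In GFP- cells they were -1.71 (adjusted p = 1.51e-05) for H2-M2, -0.75 (adjusted p = 0.000468) for H2-Q2 and -0.75 (adjusted p = 0.00024) for H2-M3, which presents formylated peptides. In KO cells Cd1d1, which presents lipids to NKT cells, differed by -0.62 (adjusted p = 0.00547), and by -0.64 (adjusted p = 0.0514) with perinate KO array 1 alone. Over the left-out arrays the counts of lower genes ran from 7 to 10, 6 to 9 and 4 to 6, and with perinate KO array 1 alone the last was 4.

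In KO against WT cells, 3 of the 12 were lower and 0 higher at either age, beside 10.8% of all genes lower in adults and 13% in perinates. H2-M1 and H2-M9, class Ib genes, were among the 3 at both ages, and both passed the filter only through adult WT GFP+ cells. In adults they could therefore be called only lower. H2-M1 read 139 ± 31.5 (SD, n = 3) and H2-M9 120.2 ± 7.35 (SD, n = 3) in those cells. On every array of the other 5 groups, perinate WT GFP+ cells included, both were below the detection threshold, so that no size is given for their differences.

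Between the gates, of 14 loading and trimming genes, 7 were higher and 1 lower in adult GFP+ than GFP- cells and 6 were higher and 0 lower in perinates. Over all genes these shares came to 24.7% higher and 20.1% lower for adults and 23% and 20.5% for perinates. The medians of the 14 were 0.27 and 0.23, and without adult GFP- array 6 the first count was 4 higher. The chaperones Hspa5, Pdia3 and Calr were higher at both ages, with differences of 0.86, 0.75 and 0.65 in adults and 0.90, 0.64 and 0.86 in perinates. Erap1, which trims peptides in the endoplasmic reticulum, was higher in adult GFP+ cells by 0.53 (adjusted p = 0.0143), a call lost without GFP- array 6 (adjusted p = 0.0798), and higher in perinate than adult GFP- cells by 0.92 (adjusted p = 0.000597). Tapbpl, a relative of tapasin, was lower in perinates, with -0.48 (adjusted p = 0.0222) in WT GFP+ and -0.51 (adjusted p = 0.0136) in GFP- cells. The first call was lost without adult array 7 or 8 or perinate array 5, and the second without adult array 7 or perinate array 2, with adjusted p values up to 0.118 and 0.0873.

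The activators Psme1 and Psme2, which form the interferon-inducible cap of the proteasome, were higher in GFP+ cells at both ages. Psme2 read 1615, 1937 and 2215 in GFP- and 3937, 4445 and 4143 in GFP+ cells of adults, and 1113 and 901 in GFP- and 3324, 3708 and 2844 in GFP+ cells of perinates. The differences were 1.13 ± 0.14 (SE; adjusted p = 5.44e-06) in adults and 1.71 ± 0.15 (SE; adjusted p = 1.41e-07) in perinates, with no overlap at either age. Psme1 differed by 0.57 (adjusted p = 0.000102) and 1.01 (adjusted p = 7.5e-07). It was lower in perinates than adults, with -0.42 (adjusted p = 0.00431) in WT GFP+ and -0.86 (adjusted p = 4.61e-06) in GFP- cells. Psme2 was called lower in perinate GFP- cells as well, by -1.08 to -0.777 over the left-out arrays, and was not called with age in WT GFP+ cells. Thus 2 of 4 activators were lower in perinate GFP- cells, beside 24.2% of all genes. Psme3, which caps other proteasomes, was higher in GFP+ cells too, so 3 of 4 activators were called at each age, whichever array was left out. Of 11 other subunits of the core, 10 were higher in adult GFP+ cells and 6 in perinate GFP+ cells (3 without perinate GFP- array 2), with medians of 0.50 and 0.40, led by Psma6 at 0.99 and 1.00 and Psmb4 at 0.89 and 0.99. None of the 11 was called with age in WT cells, where at an unadjusted p under 0.05 there were 0 in GFP+ and 2 in GFP- cells. Of 4 assembly chaperones, 3 were higher in adult GFP+ cells, 1 of them without GFP+ array 8. These counts stand beside 24.7% of all genes higher in adult and 23% in perinate GFP+ cells.

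The regulators did not share a direction with age. Of 12 tested regulators of class I genes, 1 was higher and 2 lower in perinate WT GFP+ cells, and 5 were higher and 1 lower in perinate GFP- cells (1 higher without perinate array 1, and 3 higher without adult array 7). Over all genes these shares came to 8.52% higher and 13.6% lower for the first comparison and 22.2% and 24.2% for the second. Between the gates, 3 were higher and 2 lower in adult GFP+ cells (24.7% and 20.1% of all genes). In perinate GFP+ cells 0 were higher and 5 lower (23% and 20.5%), with 3 lower without GFP+ array 5 or 7. Against WT, 1 was higher in adult and 3 in perinate KO cells (9.06% and 13.5% of all genes), and 0 were lower. Irf1, an activator of class I genes, was higher in perinate GFP- cells by 0.86 (adjusted p = 0.0158), with 3714 and 1695 on the perinate arrays and 1523, 1312 and 1313 on the adult ones. Without perinate array 1 it was 0.30 (adjusted p = 0.402). Ciita, the transactivator of MHC class II and a relative of Nlrc5, was higher in adult GFP+ cells (log2 difference 1.48 ± 0.23 (SE), adjusted p = 6.56e-05), where Nlrc5 was lower. Ciita was higher in perinate KO cells by 0.94 (adjusted p = 0.00659), which with perinate KO array 1 alone was 0.41 (adjusted p = 0.427). Rfx5, a subunit of the factor that binds class I and class II promoters, was higher in adult GFP+ cells by 0.53 (adjusted p = 0.00273) and lower in perinate WT GFP+ cells (log2 difference -0.40, adjusted p = 0.0316), the latter lost without adult array 7 or perinate array 5 or 6 (adjusted p up to 0.175).

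Genes of interferon signalling did not follow 1 direction with age. Of 9 tested genes that interferon gamma induces, 0 were higher and 2 lower in perinate WT GFP+ cells, while 6 were higher and 1 lower in perinate GFP- cells, beside 8.52% and 13.6% of all genes in the former and 22.2% and 24.2% in the latter. The higher genes of GFP- cells included Iigp1 at 1.10 (adjusted p = 0.000698) and Irgm1 at 1.09 (adjusted p = 0.013), in the comparison in which Psmb8, Psmb9, Tap2 and both heavy chain probe sets were lower. Without perinate GFP- array 1 the counts were 1 higher and 3 lower, and without adult GFP- array 7 they were 3 and 1. Without the former, Irgm1 was no longer called (adjusted p = 0.317), while Iigp1 was (0.0267). Irgm1 was also lost without adult GFP- array 7 (adjusted p = 0.0556). Ido1, a tryptophan-degrading enzyme, was lower in perinate WT GFP+ cells by -0.85 (adjusted p = 0.000383). It was called lower in perinate GFP- cells too, and in adult KO against WT cells, but perinate GFP- and adult KO cells were below the detection threshold on every array, so that no size is given. Of 13 tested receptors and signalling genes, 2 were lower in perinate WT GFP+ cells and 4 lower and 1 higher in perinate GFP- cells (2 lower without adult GFP- array 8 or perinate array 2). Irf8 was lower in perinates in both, with -0.95 (adjusted p = 0.00103) and -1.24 (adjusted p = 5.04e-05).

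In KO against WT cells, 4 of the 9 interferon gamma-induced genes were lower in adults (2 without adult WT GFP+ array 6 or 7 or adult KO array 2) and 2 in perinates, where 10.8% and 13% of all genes were. Cxcl9, a chemokine of this list, differed by -0.66 (adjusted p = 0.0127) and -0.89 (adjusted p = 0.00139). Irf7, a factor of the interferon response, was lower in KO cells at both ages, with -0.82 (adjusted p = 0.00336) and -1.14 (adjusted p = 0.000185). With perinate KO array 1 alone the perinate values were -1.05 (adjusted p = 0.0154) for Cxcl9 and -1.05 (adjusted p = 0.0247) for Irf7. Of the 4 activators and the 4 constitutive and thymic catalytic subunits none was called in KO cells at either age, and at an unadjusted p under 0.05 Psmb5 passed in adults (log2 difference -0.22, adjusted p = 0.136) and Psme1 in perinates (log2 difference 0.20, adjusted p = 0.118). Centring each array on its median moved the median of all genes from 0.0588 to 0.123 in adult and from 0.0853 to 0.148 in perinate KO against WT. With it, 2127 genes were called higher and 1350 lower in adults in place of 1254 and 1497, and 3190 and 1594 in perinates in place of 1862 and 1802. With quantile normalization 1747 were higher and 1791 lower with age in WT GFP+ cells, in place of 1179 and 1888.

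Across the 17 arrays the members fell into patterns that can be described by correlation of log2 values, which the 6 groups share and which carries no test. Tap2, Psmb8 and Psmb9 went together, with r of 0.851 between Tap2 and Psmb8, 0.837 between Tap2 and Psmb9 and 0.818 between Psmb8 and Psmb9. Tapbp went with Psmb10 at 0.819. Nlrc5 went with Tap1 at 0.62 and against Psmb10 at -0.60. The genes outside the list most like the mean of the members were Galm (r = 0.943), Vil1 (0.934), Aldh3b1 (0.923), Pklr (0.923) and Alox15 (0.922), and those most like Nlrc5 were Rundc3a (0.931), Ldb3 (0.913) and Ankrd23 (0.910). The mean of the members, each centred on its own mean, was highest in adult WT GFP+ cells, from 0.14 to 0.28 on the log2 scale, and lowest in perinate GFP- cells, from -0.26 to -0.23.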

How the data were processed

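RNA of sorted GFP+ and GFP- medullary thymic epithelial cells was amplified, labelled with biotin and hybridised to whole-transcript Affymetrix arrays (Mouse Gene 1.0 ST), 1 per sample, per the labels' protocols. The authors made the probe set values with Affymetrix Power Tools and RMA (robust multiarray average), per the submitters' processing notes (versions: not given in the sources used here). The deposited values are intensities on a linear scale, already background-corrected and normalized by RMA, so that weak signals are compressed, and the number of arrays limits the precision.

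Probe sets were named through the platform annotation: of 24922, 21425 have 1 gene symbol, 1399 several and 2098 none. The log2 of the deposited intensity was used without further scaling, and each gene was represented by its brightest probe set. Genes above the 40th percentile of an array on at least 2 arrays were tested, 13842 in all, with limma 3.58.1 in R 4.3.3: 1 model of 6 group means, 11 residual degrees of freedom, moderated variances and Benjamini-Hochberg adjustment over all tested genes. Probe sets shared by several genes were fitted separately. Intervals are 95% intervals of the model. The procedure was tested on simulated data. The constitutive and inducible subunit pairs were compared with two-sided exact permutation tests over samples.

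Adult GFP+ and GFP- samples share the numbers 6, 7 and 8. The deviations of samples of 1 number from their group means correlated over genes with r = 0.503, 0.443 and 0.188. Samples of different numbers were not compared, and an r of 0.19 was also found between the ages. The check therefore cannot show that the numbers pair the samples, and a pairing is read only from the labels' numbers. The model and the permutation tests reported have no block. With the number as a block the adult GFP comparison called the same 2 members (Nlrc5, adjusted p = 0.00733; Psmb10, adjusted p = 0.000366).

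The members and the pathway and marker lists were chosen with earlier results of these data known. The rule for named genes took all members, a fixed set of catalytic, activator, loading and regulator genes whatever they showed, up to 3 called genes of each pathway list and comparison by size of difference, the 5 genes most like the mean of the members and the 3 most like Nlrc5 by correlation, and marker or sex-linked genes beside a result. The genes of the closing section whose GFP effect differed between ages are named without that limit. Alternatives were the normalization, the filter, the pseudocount, array weights, the probe set rule, the groups entering the fit, the replicate block and leaving out each array. Some genes are not reported here.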

Additional observations from a re-analysis of the deposited data

Results flagged for a closer look

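In 13 cases the GFP effect differed between perinates and adults by the test of that difference, where 20% of all genes did. They were 0 of 8 members, 1 of 2 heavy chain probe sets, 1 of 4 activators, 1 of 4 constitutive and thymic catalytic subunits, 2 of 4 assembly chaperones, 1 of 14 loading genes, 4 of 12 regulators, 3 of 9 interferon gamma-induced genes and 0 of the 12 class I genes, 11 other core subunits and 13 receptors and signalling genes tested. Together this is a smaller share than that of all genes. The values are the perinate minus the adult log2 effect of GFP+ against GFP- cells, with limma's adjusted p. Heavy chain probe set 10444780 differed by 0.34 (adjusted p = 0.0304). Among the proteasome genes Psmb11, which was near the detection threshold outside perinate GFP- cells, differed by -1.76 (adjusted p = 2.89e-06), Psme1 by 0.43 (adjusted p = 0.0376), and the assembly chaperones Psmg1 and Psmg2 by -0.63 (adjusted p = 0.0299) and -0.70 (adjusted p = 0.0283). Erap1 differed by -0.93 (adjusted p = 0.0128). Of the regulators, Irf1 differed by -1.27 (adjusted p = 0.0209), Creb1 by -0.55 (adjusted p = 0.0375), Nfyb by -0.87 (adjusted p = 0.0449) and Ciita by -1.01 (adjusted p = 0.0493). Of the interferon-induced genes, Gbp5 differed by -1.39 (adjusted p = 0.00769), Iigp1 by -1.31 (adjusted p = 0.00544) and Cxcl10 by -0.76 (adjusted p = 0.0488). The calls of Psmb11 and Iigp1 held whichever array was left out. The others were lost without at least 1 array, probe set 10444780 without 6 (adjusted p up to 0.0674), Erap1 without 1 (adjusted p up to 0.0531), Psme1 without 7 (adjusted p up to 0.126), Psmg1 without 5 (adjusted p up to 0.215), Psmg2 without 5 (adjusted p up to 0.113), Irf1 without 3 (adjusted p up to 0.162), Creb1 without 8 (adjusted p up to 0.101), Nfyb without 9 (adjusted p up to 0.147), Ciita without 7 (adjusted p up to 0.244), Gbp5 without 1 (adjusted p up to 0.0594) and Cxcl10 without 8 (adjusted p up to 0.309). The perinate GFP- group has 2 arrays. The sum of 7 cortical markers was higher there than in every other group. Between the perinate gates, 5 of these 7 markers were called lower and 2 higher in GFP+ cells, beside 20.5% and 23% of all genes. The part of cortical markers in these differences was not tested. No group has more than 3 arrays, so single arrays were not tested as outliers.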

How the results depend on the processing

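Of the recomputed values of called members, 198 kept their call, 42 lost it and 0 reversed. The calls of Tap2 in all 3 age comparisons, of Psmb8 with age in both WT gates and in adult KO cells, of Psmb9 with age in WT GFP+ cells and of Psmb10 between the adult gates were kept in every alternative run. Of such values of called pathway genes 2407 kept their call and 415 lost it, and of those of the shared heavy chain probe sets 82 and 22 did.

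The number of members called changed as follows. In perinate KO against WT it was 0 with a filter at the 60th percentile and with array 1 alone. Between the perinate gates it was 2 with quantile normalization and 0 with array weights or only the groups compared, where adjusted p values were 0.0507 to 0.132 and 0.0531 to 0.149. With age in GFP- cells it was 5 with quantile normalization, and with age in KO cells 3 with array weights and 2 with only the groups compared or the replicate block, with Psmb9 added (adjusted p = 0.0484 with the block). For the KO effect between ages it was 1 with array weights (Psmb10, 0.72, adjusted p = 0.0359). Leaving out 1 array gave 1 to 2 between the gates in adults and in perinates, 1 to 2 in adult KO, 0 to 1 in perinate KO and 0 to 1 for the KO effect between ages. With age it gave 2 to 4 in GFP- cells, 3 to 4 in WT GFP+ cells and 1 in KO cells.

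Between the ages, the deviations of samples of 1 number correlated with r = 0.033 and 0.19 in WT GFP+ and 0.049, 0.039 and 0.059 in KO cells. The block counts there only as a check. With it 3 members were called with age in WT GFP+ cells, Psmb10 differed by -0.32 (adjusted p = 0.162), and the heavy chain probe sets had adjusted p = 0.268 and 0.0683. Besides Psmb9 with age in KO cells and Psmb10 with age in WT GFP+ cells, the block changed no call of a member.

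Directions turned only where the difference was not called in the main run. The turned value of Nlrc5 with age in WT GFP+ cells from the mean of its probe sets was itself called, as given above. With quantile normalization the direction turned for B2m at 0.017, Tapbp at -0.014 and Psmb8 at -0.070 in perinate KO against WT, for Tapbp at -0.019, probe set 10444780 at -0.052 and probe set 10450075 at -0.13 in the KO effect between ages, for Psmb9 at -0.0065 between the adult gates. With arrays centred on their median the direction turned for B2m at 0.053, Tap2 at 0.048 and probe set 10444780 at 0.042 in perinate KO against WT, for Tap2 at -0.018 between the perinate gates. With array weights the direction turned for Tap2 at 0.0010 and Psmb8 at -0.038 in perinate KO against WT, for Nlrc5 at -0.062 with age in WT GFP+ cells. With the mean of a gene's probe sets the direction turned for Nlrc5 at 0.25 in the KO effect between ages, for Nlrc5 at -0.48 with age in WT GFP+ cells. With the replicate block the direction turned for Nlrc5 at -0.051 with age in WT GFP+ cells. With perinate KO array 1 alone the direction turned for B2m at 0.080 and Tapbp at -0.063 in perinate KO against WT, for B2m at 0.073, Tapbp at -0.10 and probe set 10450075 at -0.039 in the KO effect between ages, for B2m at 0.035 with age in KO cells. Leaving out 1 array turned the direction in at least 1 case for the following, given with the lowest and highest value. Between the adult gates these were Psmb9 (-0.017 to 0.21). In the GFP effect between ages these were Tap1 (-0.26 to 0.031). With age in GFP- cells these were Tap1 (-0.27 to 0.028) and Psmb10/Psmb7 (-0.23 to 0.098). Between the perinate gates these were Nlrc5 (-0.25 to 0.037), Tap2 (-0.019 to 0.052), Psmb8/Psmb5 (-0.048 to 0.27) and Psmb10/Psmb7 (-0.21 to 0.12). In adult KO against WT these were B2m (-0.011 to 0.042), Tapbp (-0.032 to 0.086) and Psmb9/Psmb6 (-0.080 to 0.10). In the KO effect between ages these were B2m (-0.062 to 0.0080), Tapbp (-0.036 to 0.093) and probe set 10450075 (-0.020 to 0.069). With age in WT GFP+ cells these were Nlrc5 (-0.12 to 0.13). With age in KO cells these were Tap1 (-0.049 to 0.11). In perinate KO against WT these were B2m (-0.054 to 0.015), Tap2 (-0.059 to 0.011), Psmb8 (-0.091 to 0.22), probe set 10444780 (-0.051 to 0.016) and Psmb8/Psmb5 (-0.057 to 0.22).

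The cause of these changes was not tested. For 3 against 3 arrays the standard error of a log2 difference had a median of 0.13 over all tested genes. Among the members it ran from 0.083 for B2m to 0.14 for Psmb10. Signal near the 40th percentile of an array is little above background. The median-centred and quantile-normalized counts of all genes are given with the KO comparisons.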
